A study of Rattus norvegicus with 9 samples.

Results

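Genes of the interferon response and of antigen presentation were followed in 3 cell populations from newborn rat oligodendrocyte progenitor cultures. A gene was included when its symbol began with RT1-, the prefix of the rat major histocompatibility complex, or matched a fixed set of names. The set holds interferon receptors, Irf and Stat factors, Ifi, Ifit, Ifitm, Oas, Mx and Gbp genes, B2m, Cd74, the Tap and Tapbp genes and 3 immunoproteasome subunits, with Isg15, Bst2 and Rsad2. Ripk1, Clec2d and Cd302 were added by name. Of 35129 probes on the array, 83 met the rule. Of these, 79 carried 1 gene symbol and stood for 67 of 12199 genes, and 66 of those genes had a value (Oasl was missing on every array). The other 4 probes carried several symbols and name no gene here. The name pattern also takes in Irf2bp1 and Irf2bpl, whose proteins bind the factor IRF2. The largest group holds 24 genes placed by name among antiviral or otherwise interferon-induced genes, and induction of each was not tested.

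The O4 population expressed the O4 antigen and was negative for NG2. The NG2/A2B5 population carried both NG2 and A2B5, and the NG2 population carried only NG2. There are 3 arrays per population, and their labels carry the numerals I, II or III. Although 3 cultures were made, no label ties a numeral to a culture, so the p-values reflect array-to-array spread, which may be technical. All cells came from newborn rats, with no treatment or genotype named in the labels. NG2 is a surface proteoglycan and A2B5 a ganglioside epitope of progenitors, while O4 marks sulfated glycolipids of later progenitors and immature oligodendrocytes. The total RNA went through 2 rounds of amplification before hybridisation, and a mixed population gives 1 value per array, so fewer cells of a type and less RNA per cell cannot be told apart.

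Interferons bind receptors that activate JAK kinases, which phosphorylate STAT proteins. STAT2 and IRF9 belong to a complex that binds the interferon-stimulated response element, and the gamma-activated site is a further promoter element of the response. The induced genes block viral replication and raise the display of peptides on class I molecules, whose heavy chains pair with B2m and are loaded through the TAP transporter from peptides cut by the immunoproteasome. Class II molecules, which present peptides from the endosome, are typical of professional antigen-presenting cells. Oligodendrocyte lineage cells are known to respond to interferon gamma in culture, and the cytokine is toxic to progenitors under some conditions. No probe used here was matched to Ifnar1 or Ifnar2.

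The promoters of 5 genes are shown because their values differ between arrays in the results that follow. Each window runs from 250 bases before to 50 bases after the annotated gene start, 5′ to 3′ in the direction of transcription, from RefSeq assembly GRCr8. Capitals mark matches to the interferon-stimulated response element, searched on both strands as GAAANNGAAA. The window of Bst2 is chr16:18254918-18255217 on the minus strand, and that of RT1-S3 is chr20:2675278-2675577 on the plus strand. The Rsad2 window is chr6:48788071-48788370 on the minus strand, and the Ifi44 window is chr2:243303791-243304090 on the minus strand. Ifi30, at chr16:18709320-18709619 on the plus strand, is shown as a window with no match.
Bst2: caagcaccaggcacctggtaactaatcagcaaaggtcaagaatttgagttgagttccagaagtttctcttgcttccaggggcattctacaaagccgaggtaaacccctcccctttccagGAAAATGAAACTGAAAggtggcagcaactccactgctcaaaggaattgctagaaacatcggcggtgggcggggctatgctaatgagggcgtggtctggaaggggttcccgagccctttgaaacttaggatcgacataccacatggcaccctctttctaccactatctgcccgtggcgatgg
RT1-S3: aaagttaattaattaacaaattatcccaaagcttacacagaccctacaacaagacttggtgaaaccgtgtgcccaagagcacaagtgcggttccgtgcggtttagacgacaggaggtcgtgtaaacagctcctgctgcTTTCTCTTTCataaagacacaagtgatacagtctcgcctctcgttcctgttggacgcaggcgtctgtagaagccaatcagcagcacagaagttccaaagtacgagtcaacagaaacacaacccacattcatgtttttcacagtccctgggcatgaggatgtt
Rsad2: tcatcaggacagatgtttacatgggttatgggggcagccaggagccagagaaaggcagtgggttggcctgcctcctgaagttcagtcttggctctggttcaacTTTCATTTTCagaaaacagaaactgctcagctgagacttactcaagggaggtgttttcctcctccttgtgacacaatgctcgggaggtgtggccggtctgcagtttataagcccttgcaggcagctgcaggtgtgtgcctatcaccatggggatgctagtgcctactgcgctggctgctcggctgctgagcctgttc
Ifi44: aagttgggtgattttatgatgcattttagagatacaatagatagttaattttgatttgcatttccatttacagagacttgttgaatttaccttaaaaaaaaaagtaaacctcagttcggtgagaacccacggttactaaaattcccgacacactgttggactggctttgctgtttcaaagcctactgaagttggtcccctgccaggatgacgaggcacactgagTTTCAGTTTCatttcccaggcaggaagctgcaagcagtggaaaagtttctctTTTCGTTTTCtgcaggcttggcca
Ifi30: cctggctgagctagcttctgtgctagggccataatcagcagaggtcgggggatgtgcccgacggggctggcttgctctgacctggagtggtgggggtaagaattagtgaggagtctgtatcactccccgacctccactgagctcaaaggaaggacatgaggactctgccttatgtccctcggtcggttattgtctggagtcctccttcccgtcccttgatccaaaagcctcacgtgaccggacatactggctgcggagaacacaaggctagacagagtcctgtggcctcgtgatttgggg

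Promoters were found for 57 of the 66 genes. Of these 57 genes, 22 (38.6%) had at least 1 match to the response element, against 1312 of 33469 RefSeq promoter windows of the same length (3.92%). The first share counts genes and the second counts windows. Ifit1bl had more than 1 window and was counted once, by the window with a match. The 22 genes include B2m, Tap1, Tap2, Tapbp, Psmb8 and Psmb10 of the class I pathway, the class I genes RT1-S3 and RT1-N3, and the antiviral genes Rsad2, Oas1i, Ifit3 and Ifitm2. The 29 matches began between 207 bases before and 26 bases after the start. The gamma-activated site was searched as TTCNNNGAA, which reads the same on both strands. It was matched in 10 of the 57 genes (17.5%), among them Irf1, Irf8, Irf9 and Psmb8, against 2970 of all windows (8.87%). In Bst2, 1 response element match overlapped a match to this site. A match describes letters in the window and does not show binding.

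**Figure D1:**
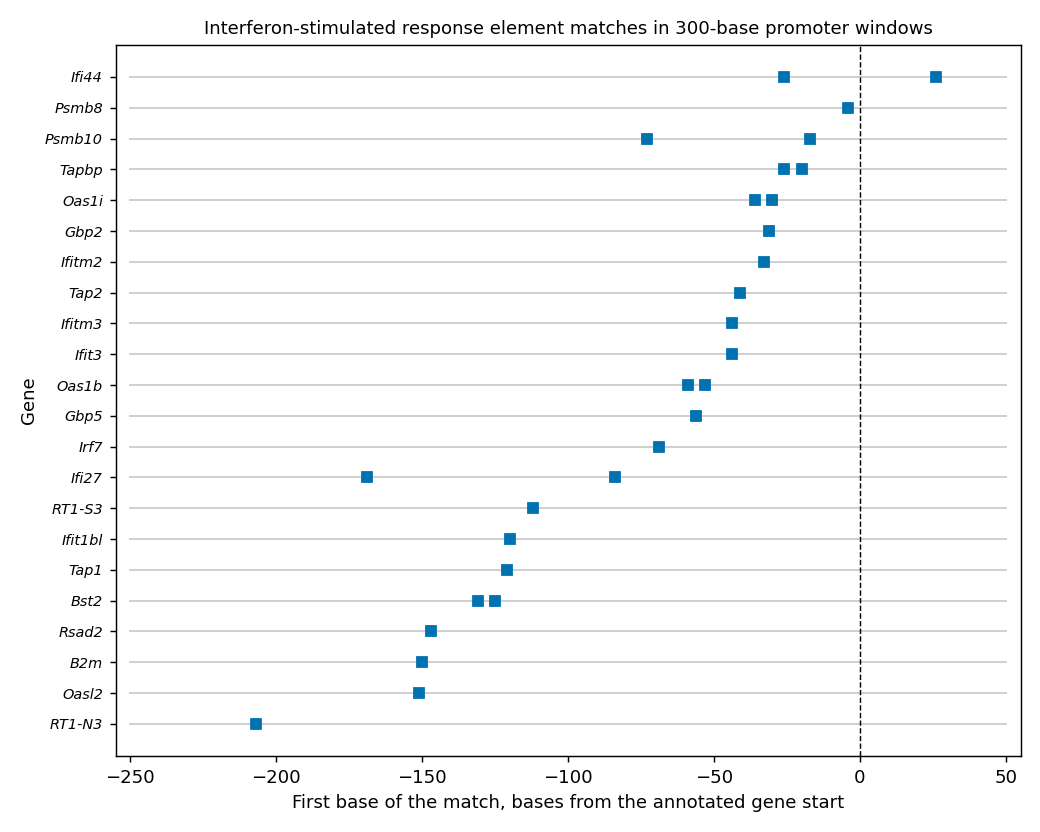
Positions of response element matches in the promoter windows of the 22 genes that held one. The x axis gives the first base of each match in bases from the annotated gene start (dashed line), each row is a gene and each square a match. The 29 squares lie between -207 and 26.

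Values are the deposited scaled intensities on a log2 scale, where the median probe of an array lies near 0. The 25th percentile of all probes lay between -2.29 and -1.97 on the 9 arrays and served as a mark for values near background. A level on this scale belongs to its probe and is not set against that of another gene. Of the 66 genes, 39 lay above the 25th percentile on every array, 23 fell under it on at least 1 array and 4 (RT1-CE5, RT1-M3-1, Irf7 and Ifitm3) were under it on all 9.

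Of the 9 measured progenitor markers, 8 were above the 25th percentile on every array, and Pdgfra was under it on 1. So were 5 of 8 astrocyte, 5 of 9 endothelial and 3 of 7 fibroblast and pericyte markers above it on every array. Lying above this mark therefore does not set the cell types apart. Cspg4, which encodes NG2, read 125, 92.1 and 154 as a linear intensity on O4 arrays I, II and III. It read 104, 127 and 185 on NG2/A2B5 arrays and 135, 146 and 166 on NG2 arrays. Its transcript was thus also present in the O4 population, which was negative for the NG2 antigen, and the ranges overlapped. Of 17 measured microglial markers, the complement genes C1qa, C1qb and C1qc were under the 25th percentile on all arrays, while Itgam, Laptm5, Tyrobp, Cd68 and Cd14 were above it on all arrays. The summed linear intensity of the 17 markers was 15.58 to 21.29 on O4 arrays, 15.94 to 17.74 on NG2/A2B5 arrays and 14.54 to 16.17 on NG2 arrays. Such a sum is set mostly by the brightest probes, here Itgam, Cd68 and Cd14, and does not measure the share of a cell type. Of 9 lymphocyte markers 5 were measured, with sums of 2.004 to 2.568 on O4 arrays, 1.966 to 2.854 on NG2/A2B5 arrays and 2.389 to 2.498 on NG2 arrays. The part of these cell types in the values below was not tested.

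Both measured receptor genes encode chains of the interferon gamma receptor, the ligand-binding chain Ifngr1 and the signalling chain Ifngr2. The log2 intensity of Ifngr2 was 0.83, 0.95 and 0.74 on O4 arrays I, II and III, 1.33, 1.14 and 0.96 on NG2/A2B5 arrays, and 1.78, 1.59 and 1.18 on NG2 arrays. Every O4 array lay below every array of the other populations. The log2 difference O4 minus NG2 was -0.68 (SE 0.19), the smallest p among genes not named in the selection, but the adjusted p was 0.566 (limma, Benjamini-Hochberg over all genes). With the numeral as a block and limma's trend and robust options, the adjusted p was 0.0633. Ifngr1 read 2.15, 3.17 and 3.54 on O4 arrays, 2.62, 3.39 and 3.65 on NG2/A2B5 arrays and 3.10, 3.43 and 3.20 on NG2 arrays. Its populations overlapped, and the numeral I array was the lowest of each population.

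Of the 9 Stat and Irf genes, 7 were above the 25th percentile on every array. Stat3, the transducer of interleukin 6 family cytokines, read 6.70, 6.33 and 6.53 in O4, 6.65, 6.66 and 6.85 in NG2/A2B5 and 6.55, 6.05 and 6.41 in NG2 arrays. All NG2/A2B5 values exceeded all NG2 values, by a mean log2 difference of 0.39 (SE 0.18, adjusted p = 1 in limma). That difference was 0.22 with the mean of its probes and 0.25 without the NG2 II array. Stat2, the partner of IRF9, averaged 3.14 ± 0.44 in O4 cells, 3.07 ± 0.32 in NG2/A2B5 cells and 3.06 ± 0.47 in NG2 cells (SD, n = 3 each), so the means lay closer together than the arrays of any population. Irf9 itself averaged 2.93 ± 0.39, 2.92 ± 0.66 and 3.02 ± 0.41 in O4, NG2/A2B5 and NG2 cells (SD, n = 3 each). Irf3, which responds to viral nucleic acid sensors, averaged 4.45 ± 0.48 in O4 cells, 4.39 ± 0.28 in NG2/A2B5 cells and 4.39 ± 0.28 in NG2 cells (SD, n = 3 each).

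Irf1, an activator of class I genes, had 2 probes whose values moved alike across arrays. Its brighter probe averaged 1.45 ± 0.77 in O4 cells, 1.32 ± 0.45 in NG2/A2B5 cells and 1.78 ± 0.31 in NG2 cells, and Irf2, which opposes IRF1 at shared sites, averaged 0.26 ± 0.14, 0.13 ± 0.14 and 0.00 ± 0.33 in the same order (SD, n = 3 each). Irf8, a factor best known in myeloid cells, read -0.75, -0.09 and -0.45 on O4 arrays, -1.21, -0.84 and -0.89 on NG2/A2B5 arrays and -0.92, -0.65 and -1.19 on NG2 arrays. Every O4 array lay above every NG2/A2B5 array, and 1 O4 array overlapped the NG2 range. The log2 difference was 0.54 for O4 minus NG2/A2B5 (SE 0.23, adjusted p = 1) and 0.49 for O4 minus NG2 (SE 0.23, adjusted p = 0.649), and 0.32 for O4 minus NG2 without the O4 II array. Irf5 was under the 25th percentile on 3 arrays and missing on the NG2 II array, and Irf7 was under it on all 9.

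In the class I pathway, B2m read 1.10, 1.22 and 1.67 on O4 arrays, 1.48, 1.16 and 1.93 on NG2/A2B5 arrays and 1.65, 1.90 and 1.84 on NG2 arrays. Its O4 and NG2 ranges met only at the O4 III array, and the log2 difference O4 minus NG2 was -0.47 (SE 0.24, adjusted p = 0.666 in limma). Tap1, a transporter subunit, varied little on its brighter probe, from 1.82 to 2.16 over all arrays. Its O4 values of 1.88, 1.85 and 1.98 and its NG2/A2B5 values of 2.00, 1.82 and 1.86 were all below its NG2 values of 2.16, 2.06 and 2.04, with a log2 difference O4 minus NG2 of -0.19 (SE 0.13, adjusted p = 0.752). A second, dimmer Tap1 probe ranged from 0.171 to 0.707 as a linear intensity. On it O4 again lay below NG2, but NG2/A2B5 I, at 0.646, was above NG2 I at 0.616 and NG2 III at 0.607. The order of NG2/A2B5 below NG2 thus holds for the brighter probe only. Tap2, the other transporter subunit, and Tapbpl, a peptide editor, each fell under the 25th percentile on some arrays. Tapasin (Tapbp), which bridges class I molecules to the transporter, averaged -0.56 ± 1.18 in O4 cells, -0.17 ± 0.19 in NG2/A2B5 cells and -0.12 ± 0.14 in NG2 cells (SD, n = 3 each). The wide O4 spread came from the O4 II array at -1.92, against 0.09 and 0.14 on the other O4 arrays.

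All 3 immunoproteasome subunits were above the 25th percentile on every array. Psmb10 averaged 6.20 ± 0.14 in O4 cells, 6.07 ± 0.17 in NG2/A2B5 cells and 6.04 ± 0.14 in NG2 cells. Psmb9 averaged 3.93 ± 0.18, 3.67 ± 0.45 and 4.03 ± 0.27 in O4, NG2/A2B5 and NG2, and Psmb8 averaged 0.32 ± 0.39, 0.23 ± 0.37 and -0.08 ± 0.39 (SD, n = 3 each). The subunits had no shared order of populations. The largest of their 9 log2 differences was 0.40 for Psmb8 in O4 minus NG2 (SE 0.30, 95% interval -0.30 to 1.09, adjusted p = 0.765).

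Of 9 genes for class II chains and processing, Ifi30, RT1-Da and RT1-DMa were above the 25th percentile on every array, and 6 were under it on at least 1. Cd74, the invariant chain that escorts class II molecules, read -3.28, -2.80 and -2.74 in O4, -3.02, -1.93 and -3.66 in NG2/A2B5 and -1.74, -2.09 and -2.82 in NG2 arrays, and was under the 25th percentile on 7 of 9 arrays. RT1-Da, a class II alpha chain, averaged -1.17 ± 0.60 in O4 cells, -0.67 ± 0.44 in NG2/A2B5 cells and -1.06 ± 0.32 in NG2 cells (SD, n = 3 each). RT1-DMa, a subunit of the class II peptide exchanger, averaged 2.72 ± 0.45, 2.59 ± 0.51 and 2.63 ± 0.17 in O4, NG2/A2B5 and NG2 (SD, n = 3 each). The beta chain gene RT1-Db1 read -3.20, -2.82 and -2.24 in O4, -1.97, -1.80 and -1.92 in NG2/A2B5 and -3.06, -3.36 and -2.75 in NG2 arrays. The NG2/A2B5 values stood above the other 6, with a log2 difference NG2/A2B5 minus NG2 of 1.16 (SE 0.27, adjusted p = 0.862). That difference was 0.30 with values floored at the 25th percentile.

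**Figure D2:**
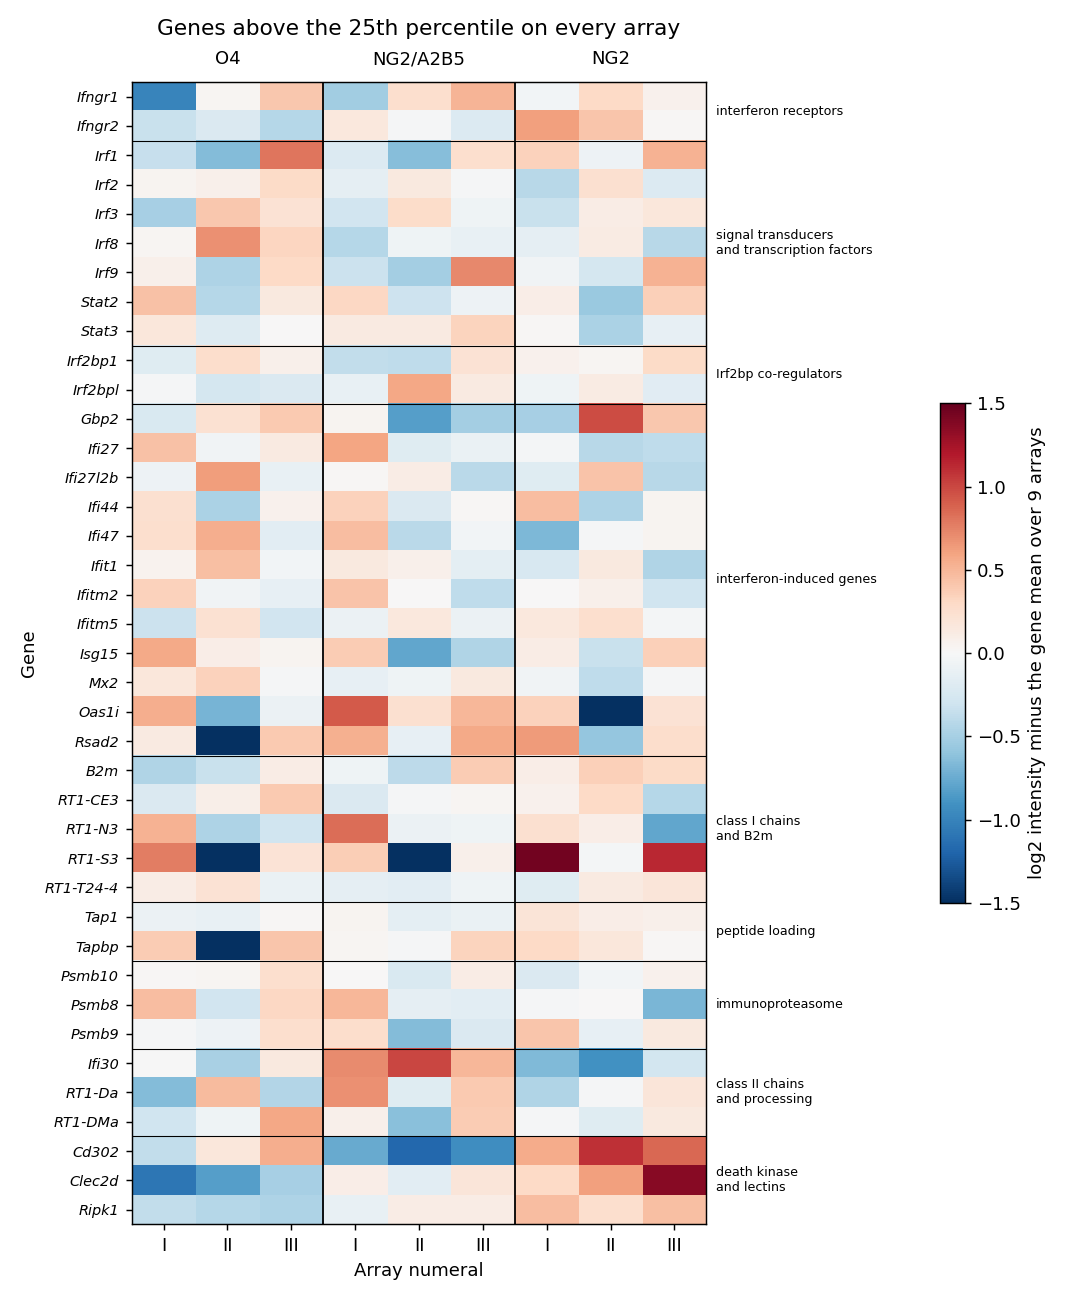
Log2 intensity of the 39 genes above the 25th percentile on every array, shown as the difference from each gene's mean over the 9 arrays. Rows are genes ordered by role, columns are arrays I, II and III of O4, NG2/A2B5 and NG2, and colours saturate at the ends of the scale. The NG2/A2B5 values of Ifi30 are above and those of Cd302 below all others, and Rsad2, Ifi44 and RT1-S3 have their lowest or near-lowest values on numeral II arrays.

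The populations were compared with limma over all genes. In O4 minus NG2, 0 of the 66 genes had an adjusted p under 0.05, against 0.00822% of 12165 genes. In O4 minus NG2/A2B5 the count was also 0 of 66, against 0.00822% of all genes, and in NG2/A2B5 minus NG2 it was 0 of 66, against 0% of 12166. The number of arrays limits the precision of these counts. Among the 60 genes not named in the selection, 4 (6.67%), 3 (5%) and 1 (1.67%) had an unadjusted p under 0.05 in these comparisons, against 8%, 3.28% and 4.48% of all genes. Their median log2 difference was 0.05 in O4 minus NG2, against 0.02 over all genes. In O4 minus NG2/A2B5 the median was 0.10, against 0.02, and in NG2/A2B5 minus NG2 it was -0.06, against -0.01. The 60 genes split 32 higher and 28 lower in O4 against NG2, 40 and 20 in O4 against NG2/A2B5, and 24 and 36 in NG2/A2B5 against NG2. Without the NG2/A2B5 II array both of the last 2 splits became 30 and 30, and the median of O4 minus NG2/A2B5 was then 0.00125. Without the O4 III array that median was 0.02, with a split of 32 and 28, and without the NG2 III array O4 against NG2 split 30 and 30 with a median of -0.02.

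**Figure D3:**
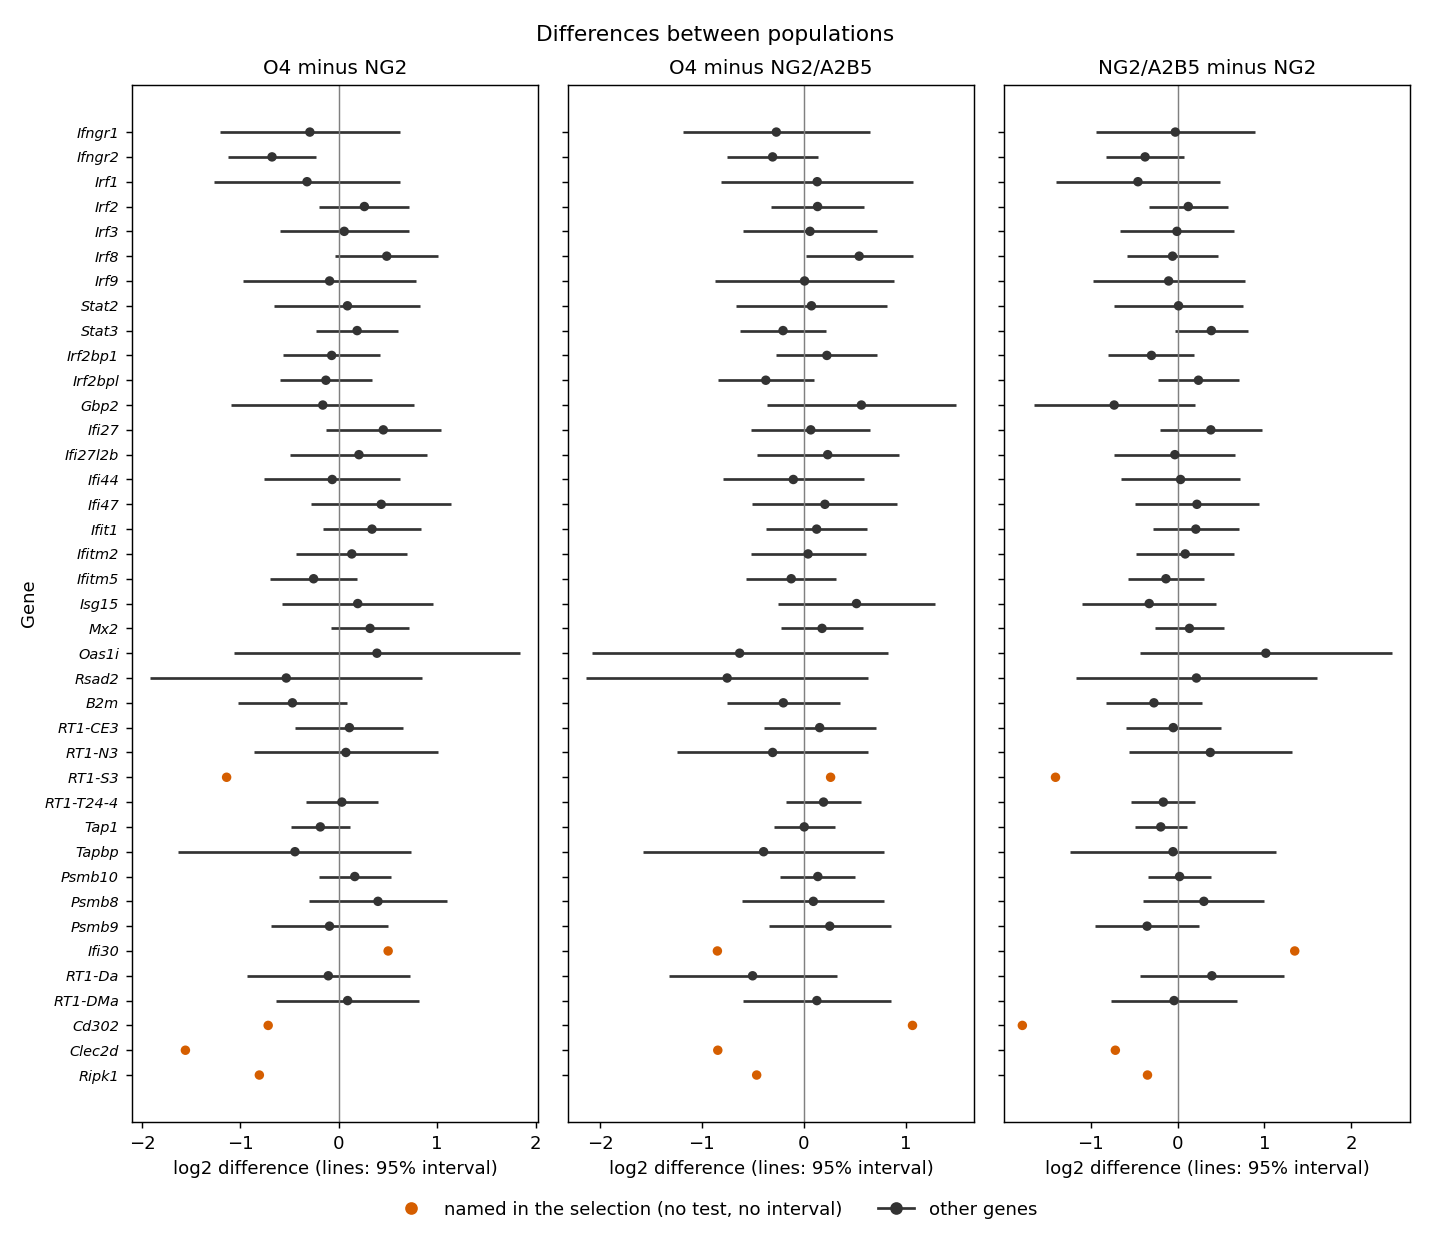
Log2 differences between populations for the genes above the 25th percentile on every array, with 1 panel per comparison. Points are the limma estimates, lines their 95% intervals, and orange points without lines are genes named in the selection for their values. Of the black lines, Ifngr2 in O4 minus NG2 and Irf8 in O4 minus NG2/A2B5 do not cross 0, and neither had an adjusted p under 0.05.

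Bst2, Ifi30 and RT1-S3 were named in the selection because they differed, and Ripk1, Clec2d and Cd302 were added to it by name. These 6 were selected on their differences between populations, so they are given as a description without a test. With the numeral as a block and limma's trend and robust options, the called genes of the group were among these 6, with 3 in O4 minus NG2 (Clec2d, Ripk1 and RT1-S3, where 1.02% of all genes were called), 0 in O4 minus NG2/A2B5 (0.00822%) and 4 in NG2/A2B5 minus NG2 (Bst2, Cd302, Ifi30 and RT1-S3, where 0.781% were called). The selection used these values, so nothing is read from these counts.

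Bst2 encodes tetherin, a membrane protein that holds budding virus particles at the cell surface. Its log2 intensity was -0.45, -1.44 and -1.48 on O4 arrays I, II and III, 0.33, -0.40 and -0.98 on NG2/A2B5 arrays and -0.70, -2.92 and -3.39 on NG2 arrays. Within each numeral, NG2/A2B5 was highest and NG2 lowest, although the populations overlapped across numerals. The log2 difference NG2/A2B5 minus NG2 was 1.03, 2.52 and 2.41 within numerals I, II and III, and averaged 1.99. The NG2 II and III arrays were under the 25th percentile, and with values floored there the mean difference was 1.32.

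Ifi30 encodes a thiol reductase of the lysosome that unfolds proteins for class II presentation. It read 1.89, 1.41 and 2.04 in O4, 2.60, 2.89 and 2.39 in NG2/A2B5 and 1.23, 0.99 and 1.61 in NG2 arrays. Every NG2/A2B5 value was above every value of the other populations, and the lowest O4 value was below the highest NG2 value. The log2 difference NG2/A2B5 minus NG2 was 1.37, 1.90 and 0.77 within numerals I, II and III, and O4 minus NG2/A2B5 was -0.71, -1.48 and -0.35. Ifi30 differed in direction from Cd74, whose NG2/A2B5 mean of -2.87 ± 0.87 was below its NG2 mean of -2.22 ± 0.55 (SD, n = 3 each), both near background.

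RT1-S3 is a class I heavy chain gene. Its values were 1.07, -1.55 and 0.50 in O4, 0.67, -1.81 and 0.38 in NG2/A2B5 and 1.75, 0.27 and 1.43 in NG2 arrays. NG2 was highest within every numeral, and the numeral II array was lowest within every population. Within numerals I, II and III the log2 difference O4 minus NG2 was -0.68, -1.82 and -0.92, and NG2/A2B5 minus NG2 was -1.08, -2.08 and -1.05. The other class I genes above the 25th percentile on every array did not share this order. RT1-CE3 averaged 1.13 ± 0.30 in O4 cells, 0.97 ± 0.13 in NG2/A2B5 cells and 1.02 ± 0.37 in NG2 cells, and RT1-N3 averaged -0.15 ± 0.53, 0.16 ± 0.53 and -0.22 ± 0.55 (SD, n = 3 each). Class I genes of the rat are near-identical over long stretches, so a probe may also read related genes.

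Cd302, a C-type lectin receptor of phagocytes, read 2.70, 3.23 and 3.62 in O4, 2.32, 1.89 and 2.14 in NG2/A2B5 and 3.62, 4.16 and 3.93 in NG2 arrays. The NG2/A2B5 values lay below all others. The mean log2 difference was -1.79 for NG2/A2B5 minus NG2 and 1.07 for O4 minus NG2/A2B5. Clec2d, whose protein is a ligand of natural killer cell receptors in mouse and human, read -2.03, -1.77 and -1.45 in O4, -0.84, -1.11 and -0.76 in NG2/A2B5 and -0.65, -0.34 and 0.42 in NG2 arrays. Its populations did not overlap, with O4 lowest and NG2 highest, and the O4 minus NG2 difference averaged -1.56.

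Ripk1 is a kinase that directs survival and death signals from tumour necrosis factor receptors. It read 2.84, 2.78 and 2.75 in O4, 3.11, 3.32 and 3.32 in NG2/A2B5 and 3.67, 3.46 and 3.66 in NG2 arrays, again without overlap between populations. The SD within a population was at most 0.12, against a mean log2 difference of -0.81 for O4 minus NG2. A second Ripk1 probe was near background, at 0.0925 to 0.561 as a linear intensity, and with the mean of both probes the difference was -0.41. For NG2/A2B5 minus NG2 the brighter probe gave -0.565, -0.136 and -0.337 within numerals I, II and III. The mean of both probes gave 0.0745 there, so that order holds for the brighter probe only.

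**Figure D4:**
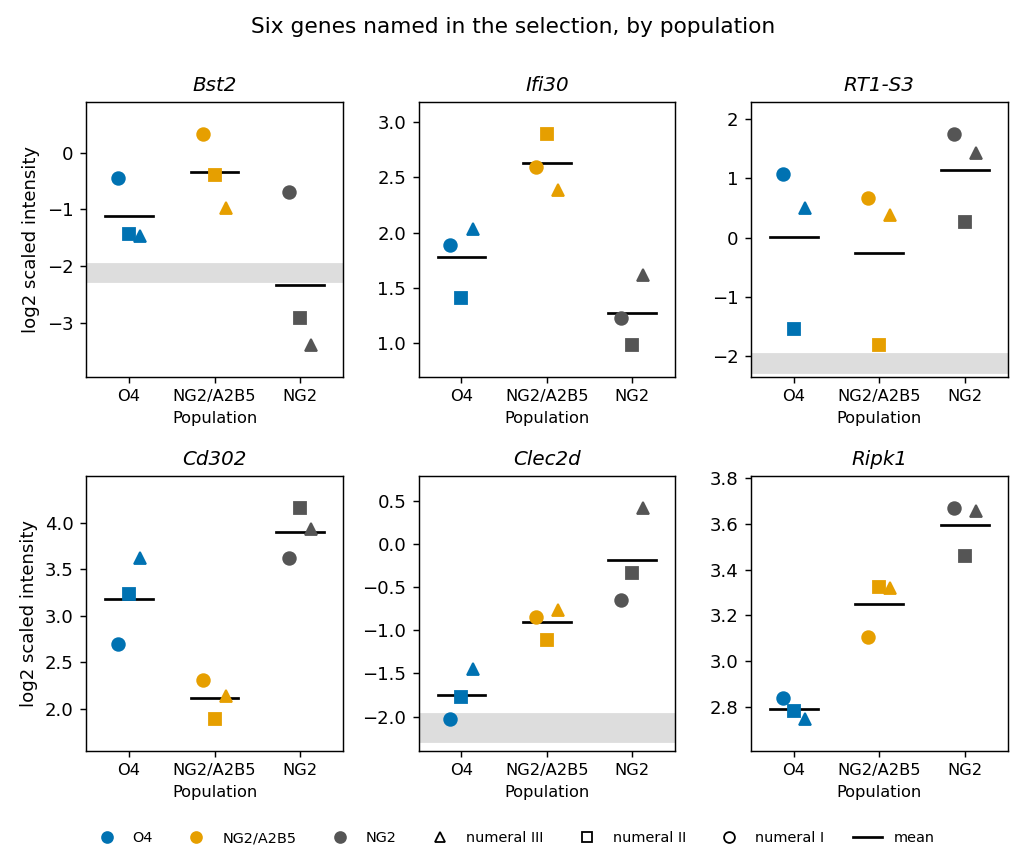
Log2 scaled intensity of the 6 genes named in the selection. Each point is an array, shape gives its numeral, the line is the population mean and the grey band is the range of the arrays' 25th percentiles. Clec2d and the brighter probe of Ripk1 separate all 3 populations, NG2/A2B5 stands apart for Ifi30 and Cd302, and Bst2 and RT1-S3 order the populations only within a numeral.

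Of the 65 genes with a value on every array, 6 (Cd302, Clec2d, Ifngr2, Ripk1, RT1-CE12 and Tap1) had every O4 value below every NG2 value, which is 9.23%, against 6.54% of 12025 genes. Ifit2, Irf7 and RT1-CE15 had every O4 value above every NG2 value, which is 4.62%, against 7.51%. In O4 against NG2/A2B5, 3 genes were above (4.62%, against 5.31%) and 5 below (7.69%, against 3.36%). In NG2/A2B5 against NG2, Ifi30, Irf7, RT1-Db1 and Stat3 were above (6.15%, against 5.19%). Cd302, Clec2d, Ripk1 and Tap1 were below (6.15%, against 5.01%). The 5 genes below in O4 against NG2/A2B5 are Clec2d, Ifi30 and Ripk1 of the selection with Ifngr2 and RT1-Db1. Cd302, Clec2d, Ifi30 and Ripk1 were selected on such differences. Only the share above in O4 against NG2 holds none of them, and nothing is read from the shares that do.

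Set against both other populations at once, 1 gene (Ifit2, 1.54%, against 1.9%) had its O4 values highest and 3 (Clec2d, Ifngr2 and Ripk1, 4.62%, against 1.47%) had them lowest. Ifi30 and RT1-Db1 were highest in NG2/A2B5 (3.08%, against 0.524%) and Cd302 was lowest there (1.54%, against 0.881%). In NG2, Cd302, Clec2d, Ripk1 and Tap1 were highest (6.15%, against 1.69%), for Ripk1 and Tap1 on the brighter probe only. Irf7 was lowest there (1.54%, against 2.38%). Of the genes set against both other populations, Clec2d, Ripk1, Ifi30 and Cd302 were selected on such differences. Counts of a shared sign within all 3 numerals each include genes of the selection, so nothing is read from their shares. O4 was above NG2 in 13 genes (20%, against 20.1%) and below it in 11 (16.9%, against 17.8%). Likewise O4 was above NG2/A2B5 in 13 genes (20%, against 15.8%) and below it in 11 (16.9%, against 12.8%). NG2/A2B5 was above NG2 in 8 genes (12.3%, against 15.2%) and below it in 13 (20%, against 16.3%).

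Most other genes with small p values between populations were near background. Ifit2, an interferon-induced RNA-binding protein, read -1.49, -1.83 and -1.35 in O4, -2.28, -2.33 and -2.40 in NG2/A2B5 and -2.13, -1.92 and -3.56 in NG2 arrays. Its O4 values lay above all others, with a log2 difference O4 minus NG2 of 0.98 (SE 0.40, adjusted p = 0.624 in limma), which was 0.53 with values floored at the 25th percentile and 0.46 without the NG2 III array. The class I gene RT1-CE15 and the oligoadenylate synthetase family gene Oas1d had O4 minus NG2 differences of 1.09 each, which were 0.33 for both when values were floored at the 25th percentile. For Oas1b, O4 minus NG2/A2B5 was 1.73 (SE 0.88, adjusted p = 1), 0.47 with the floor and 0.62 without the NG2/A2B5 III array. For Irf7, NG2/A2B5 minus NG2 was 4.31 because 1 NG2 array read -12.29, and the difference was -0.01 with the floor. RT1-CE12 gave -0.73 for NG2/A2B5 minus NG2 (SE 0.34, adjusted p = 1), -0.35 without the NG2/A2B5 II array and 1.28 with the mean of its probes.

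Some further antiviral genes above the 25th percentile on every array are given by their means, and none had an adjusted p under 0.05 between populations. Rsad2 and Oas1i are described with the numerals. Mx2, a dynamin-like GTPase, averaged 1.44 ± 0.18 in O4 cells, 1.26 ± 0.14 in NG2/A2B5 cells and 1.12 ± 0.20 in NG2 cells (SD, n = 3 each). Ifit1, which binds foreign RNA ends, averaged 1.26 ± 0.26, 1.13 ± 0.15 and 0.92 ± 0.30 in O4, NG2/A2B5 and NG2 (SD, n = 3 each). Isg15, a ubiquitin-like modifier, averaged -0.69 ± 0.29, -1.20 ± 0.60 and -0.88 ± 0.35, and Ifi27 averaged 5.36 ± 0.25, 5.29 ± 0.43 and 4.91 ± 0.21 (SD, n = 3 each). Ifi27, a small hydrophobic protein, was higher in O4 than in NG2 within each numeral, by 0.47, 0.37 and 0.52 (log2; adjusted p = 0.693 without the block).

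The arrays were also compared by numeral. A numeral has only 1 array per population, so the populations stand in for replicates in these p-values. No numeral was repeated within a population. With population in the model, III minus II gave 1 of 66 genes with an adjusted p under 0.05, against 3.55% of 12166 genes. That gene was RT1-S3, with a log2 difference of 1.80. It was named in the selection because it differed, so nothing is read from its call. III minus I gave 0 of 66, against 0% of all genes, and II minus I gave 0 of 66, against 0.23%. Of the other 60 genes, 11 (18.3%), 9 (15%) and 15 (25%) had an unadjusted p under 0.05 in III minus II, III minus I and II minus I, against 23.7%, 12.6% and 17.2% of all genes. All genes shifted by a median of 0.10 in II minus I, whereas the 60 genes had a median of 0.00. Without any 1 of the 9 arrays, the calls over all genes in III minus II dropped to between 0 and 5, against 432 with all arrays, and RT1-S3 was no longer called.

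With limma's trend and robust options, which let the spread depend on the level, 8 of 66 genes were called in III minus II, against 15.5% of all genes. Besides RT1-S3 they were Irf1, Irf9, Oas1i, RT1-DMa, Rsad2 and Stat2, higher in III, and Ifi27l2b, lower in III. In III minus I the options called Ifngr1, and Bst2 of the selection, against 2.56% of all genes. In II minus I they called 8, against 6.87%. Besides RT1-S3 these were Ifngr1 and Irf3, higher in II, and Ifi27, Ifi44, Oas1i, Rsad2 and Stat2, lower in II. Bst2 and RT1-S3 were selected because they differed, so nothing is read from their calls between numerals.

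Irf9 and Stat2 encode the IRF and STAT2 parts of the complex at the response element. Irf9 read 3.26, 3.67 and 3.47 on the numeral III arrays of O4, NG2/A2B5 and NG2, 2.49, 2.45 and 2.69 on the II arrays and 3.03, 2.63 and 2.90 on the I arrays. All III values were above all others, and III minus II was 0.92 (SE 0.18, adjusted p = 0.0584, and 0.00147 to 0.189 over the other settings). Stat2 read 3.23, 3.02 and 3.45 on III, 2.66, 2.78 and 2.53 on II and 3.53, 3.41 and 3.19 on I arrays of O4, NG2/A2B5 and NG2. Its II values were below all others, with II minus I of -0.72 (SE 0.17, adjusted p = 0.152, and 0.0138 to 0.379 over the other settings).

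Rsad2 encodes viperin, an antiviral enzyme, and Ifi44 an interferon-induced protein. In the order O4, NG2/A2B5 and NG2, Rsad2 read 0.29, 0.47 and 0.17 on III, -1.91, -0.22 and -0.68 on II and 0.05, 0.43 and 0.54 on I arrays. Its III minus II difference was 1.24 (SE 0.33, adjusted p = 0.102) and II minus I was -1.27 (SE 0.33, adjusted p = 0.164). Ifi44 read 0.43, 0.38 and 0.40 on III, -0.11, 0.14 and -0.11 on II and 0.60, 0.71 and 0.83 on I arrays. The numerals did not overlap for Ifi44, and II minus I was -0.74 (SE 0.13, adjusted p = 0.0969). Oas1i, an oligoadenylate synthetase family gene, read -0.11, 0.47 and 0.19 on III, -0.72, 0.21 and -1.99 on II and 0.53, 0.89 and 0.33 on I arrays, so II was lowest within every population.

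Other members had different numeral patterns. Irf1 read 2.32, 1.77 and 2.04 on III, 0.87, 0.88 and 1.44 on II and 1.17, 1.32 and 1.86 on I arrays of O4, NG2/A2B5 and NG2, with III minus II of 0.98 (SE 0.21, adjusted p = 0.072). Irf3 read 4.62, 4.34 and 4.58 on III, 4.82, 4.69 and 4.53 on II and 3.91, 4.12 and 4.07 on I arrays, so its I values were the lowest 3, and II minus I was 0.64 (SE 0.15, adjusted p = 0.144). Ifngr1 was also lowest on I arrays, with III minus I of 0.84 (SE 0.25, adjusted p = 0.312). The Ifi27-like gene Ifi27l2b read 6.62, 6.33 and 6.31 on III, 7.36, 6.85 and 7.16 on II and 6.65, 6.75 and 6.55 on I arrays, so its II values were the highest 3, with III minus II of -0.70 (SE 0.15, adjusted p = 0.0746).

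Ifi27 was lower on II than on I arrays within each population, with II minus I of -0.55 (SE 0.13, adjusted p = 0.146) and III minus I of -0.46 (SE 0.13, adjusted p = 0.297). RT1-N3, a class I gene, and Ifitm2, which restricts virus entry, had III minus I differences of -0.92 (SE 0.23, adjusted p = 0.272) and -0.53 (SE 0.15, adjusted p = 0.307). Irf5 had a III minus II difference of 2.40 with the NG2 II array missing, which was 0.03 with values floored at the 25th percentile. Bst2, named in the selection and given as a description, averaged -1.95 ± 1.27 on III, -1.58 ± 1.27 on II and -0.27 ± 0.54 on I arrays. Here the SD spans the 3 populations of a numeral, with 1 array each, and is not a spread of replicates.

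**Figure D5:**
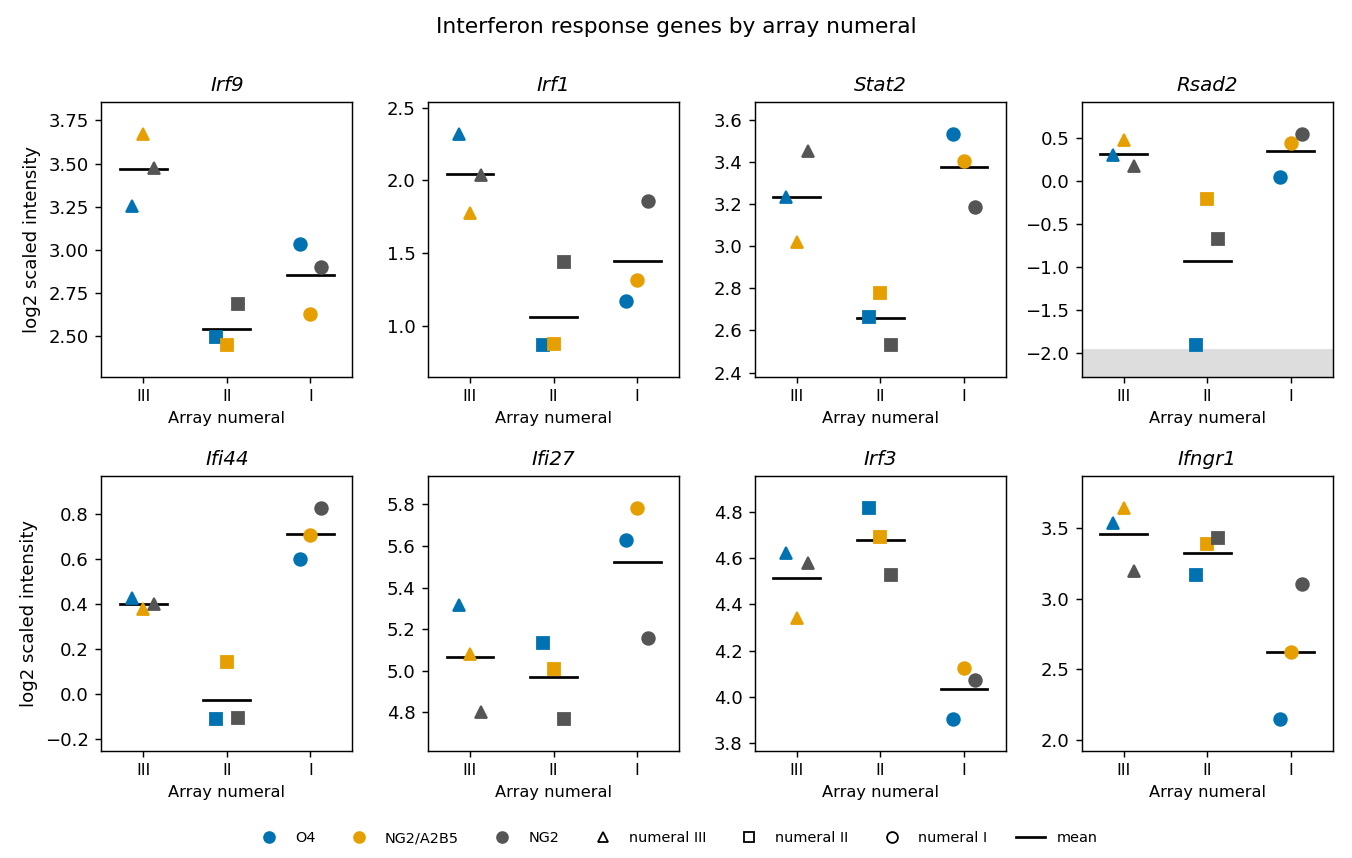
Log2 scaled intensity of 8 interferon response genes by array numeral. Each point is an array, its colour gives the population, the line is the mean of the numeral and the grey band is the range of the arrays' 25th percentiles. Stat2, Rsad2 and Ifi44 have all II values below all others, Irf9 has all III values above all others, and Irf3 and Ifngr1 have all I values below all others.

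In counts of this kind, 4 of 65 genes (Ifi44, Rsad2, RT1-S3 and Stat2) had every II value below every other value, which is 6.15%, against 3.91% of 12025 genes. Among them RT1-S3 was named in the selection because it differed. Only Ifi27l2b had every II value above the rest, which is 1.54%, against 8.18%. For numeral III, Irf9, Psmb10 and RT1-DMa were above (4.62%, against 4.53%) and Ifitm2 was below (1.54%, against 4.43%). For numeral I, Ifi44 and RT1-N3 were above (3.08%, against 1.3%) and Ifngr1 and Irf3 below (3.08%, against 2.2%). Summed microglial marker intensity was 15.58 to 16.1 on III, 16.17 to 21.29 on II and 14.54 to 19.08 on I arrays, and its part in these differences was not tested.

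A further 75 genes of interferon signalling, nucleic acid sensing and antigen presentation, none of them members, gave 60 measured genes. Between populations 0 of the 60 had an adjusted p under 0.05, and 5 (8.33%), 1 (1.67%) and 4 (6.67%) had an unadjusted p under 0.05 in O4 minus NG2, O4 minus NG2/A2B5 and NG2/A2B5 minus NG2, near the 8%, 3.28% and 4.48% of all genes. Tbk1, the kinase that activates IRF3, had an O4 minus NG2 difference of -0.57 (SE 0.15, adjusted p = 0.566), and 0.15 with the mean of its probes. Socs3, a feedback inhibitor of JAK kinases, read 0.48, 0.27 and 0.42 in O4, 0.10, -0.02 and 0.21 in NG2/A2B5 and -0.35, 0.19 and -0.10 in NG2 arrays. Its O4 values were above all others, by 0.47 against NG2 (SE 0.17, adjusted p = 0.588) and 0.29 against NG2/A2B5 (SE 0.17, adjusted p = 1). The gene of interferon gamma itself, Ifng, was near background, between -3.70 and -1.22. Its O4 minus NG2 difference was 1.52 and its NG2/A2B5 minus NG2 difference 1.07, and these were 0.51 and 0.06 with the floor.

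Lgals3bp, a secreted galectin-binding glycoprotein, read 2.38, 2.22 and 2.56 in O4, 2.36, 1.48 and 1.44 in NG2/A2B5 and 2.69, 2.73 and 2.59 in NG2 arrays. Its NG2/A2B5 minus NG2 difference was -0.91 (SE 0.25, adjusted p = 0.97), and -0.32 with the mean of its probes. In that comparison, 2 of the 60 genes (Lgals3bp and Ccl2) were called with the numeral as a block and the trend and robust options. Both were lower in NG2/A2B5, and 0.781% of all genes were called. Cmpk2, a mitochondrial nucleotide kinase, differed by 0.82 in NG2/A2B5 minus NG2 (SE 0.31, adjusted p = 1), and Parp14, an ADP-ribosyltransferase, by 0.46 in O4 minus NG2/A2B5 (SE 0.26, adjusted p = 1) and by -0.06 with the mean of its probes.

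Between numerals, 3 of the 60 genes (5%) passed in III minus II, near the 3.55% of all genes. Fcgrt, the heavy chain of the neonatal Fc receptor and a relative of class I chains, read 3.09, 2.45 and 2.87 on III, 1.75, 1.57 and 1.48 on II and 3.08, 2.53 and 2.88 on I arrays of O4, NG2/A2B5 and NG2. Fcgrt was higher in III than II by 1.20 (SE 0.14, adjusted p = 0.0253 in limma). Rfx5, which binds class II promoters, was higher by 0.68 (SE 0.12, adjusted p = 0.0474). The chemokine gene Ccl2 was lower by 1.21 on the log2 scale, with values of 2.19, 1.20 and 2.24 on III against 3.06, 2.35 and 3.85 on II arrays (SE 0.20, adjusted p = 0.0452). As for RT1-S3, these 3 calls rest on a comparison that lost nearly all calls without any single array. III minus I and II minus I gave 0 calls among the 60 genes, with 6 (10%) and 8 (13.3%) at an unadjusted p under 0.05, against 12.6% and 17.2% of all genes. Among the smallest p values, Ccl2 gave -1.68, Rfx5 0.44 and the STAT inhibitor Pias1 0.43 in III minus I, of which Rfx5 and Pias1 gave 0.84 and 0.78 with the mean of their probes. In II minus I, Fcgrt gave -1.23, the exonuclease Isg20 0.95 and the peptide-loading oxidoreductase Pdia3 0.75.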

How the data were processed

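RNA of the 3 populations was measured on 9 one-colour arrays. The authors' deposited intensity of each probe is on a scaled linear scale, normalized with spiked controls per the labels' protocols. The sources used here name no scanner or software. Array medians were 1.051 to 1.067, so no further normalization was applied. Values of -9999 were missing, and values at or below 0 took the array's smallest positive value before log2. A gene was represented by its brightest probe. Of the probes, 16865 had 1 symbol, 165 several and 18099 none, and 1 symbol was updated through RefSeq GRCr8.

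Contrasts came from limma 3.58.1 in R 4.3.3 (lmFit and eBayes, two-sided, all 9 arrays), and a gene was called when its p, adjusted over all genes by Benjamini-Hochberg, was under 0.05. Population was fitted without the numeral, and numerals with population as a term. Arrays of the same numeral deviated together (r 0.195 to 0.425 over 10149 genes, against -0.318 to -0.0112 for other pairs), so the numerals pair the arrays. The population p-values and intervals leave out this pairing unless a block is named. With the numeral block and the trend and robust options, the lowest adjusted p among the 60 genes not named in the selection was 0.0633 in O4 minus NG2. In O4 minus NG2/A2B5 it was 0.629, and in NG2/A2B5 minus NG2 it was 0.205. Intervals are 95% intervals. The scripts were tested on simulated data. Alternatives changed the scaling, low values, probe choice, spread estimate, numeral block and arrays used.

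The members and lists were chosen with earlier results of these data known. Genes named outside the 6 in the selection were, by rule, the 5 members and 3 listed pathway genes with the smallest p in each contrast, with the receptor, Stat, Irf, loading and immunoproteasome genes. Other members named, such as Mx2 and Oas1i, were chosen after their values were seen.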

Additional observations from a re-analysis of the deposited data

How the results depend on the processing

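Of 664 gene values recomputed under other settings, 644 moved by less than 1 SD and 20 moved further. The SD was taken within populations, or within numerals (across populations) for comparisons of numerals. Several settings cannot move the estimate of a gene with a value on every array. These are the numeral block, the trend and robust options, the filter at the 25th percentile and the fit to the compared arrays only. The count of 644 is therefore no measure of stability. Of 756 with an array left out, 753 moved by less than that SD. In population comparisons an omitted array cannot move a value by more than this SD, so that outcome was fixed in advance there. A change of direction was counted only for values called in the main fit, which were few, and gave 0. Uncalled values did change sign with the mean of a gene's probes, among them Tbk1, RT1-CE12 and Parp14. With the numeral as a replicate block, fixed or random, 0 members were called in each population comparison. The fixed block with trend and robust estimates gave 3 in O4 minus NG2 and 4 in NG2/A2B5 minus NG2, all among the 6 genes selected on these values. In III minus II the count was 5 among genes above the 25th percentile and 5 with the floor there (Ifi27l2b, Irf1, Irf9, Rsad2 and RT1-S3), 0 with the mean of probes, 8 with trend and robust estimates and 0 to 0 with any array left out. In III minus I it was 1 with the floor (Bst2, of the selection), 2 with trend and robust estimates (Bst2 again, and Ifngr1) and 0 to 1 with an array left out. In II minus I it was 2 with the filter, 3 with the floor, 8 with trend and robust estimates and 0 to 1 with an array left out. The 1 in both is RT1-CE5 without the NG2 I array, a gene under the 25th percentile on all arrays. The filter tests fewer genes, and the cause of the other changes was not tested. Over all genes, III minus II gave 432 calls, against 1016 with the filter, 1293 with the floor and 1884 with trend and robust estimates. II minus I gave 28, against 303, 402 and 836. Groups of 3 arrays limit all calls, and 23 genes under the 25th percentile on some arrays and 4 on all are measured close to background.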
